A study of Mus musculus with 6 samples.

Results

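The regions described here are the H3K79me2 peaks that lie over 5 mouse genes, Foxp1, Auts2, Mgat5, Cux1 and Etv6. They are the 41 peaks, of 18992 in the deposited list, that overlap by at least 1 base an mm9 window drawn around each gene, and the 5 widest peaks of the list fell into these windows, 1 in each. The genes were chosen by peak width, and fold and pileup come from the same peak calls, so all values are given as a description and no test was run. Chromatin came from mouse leukaemia blasts in 1 condition: CMP cells transformed with MN1 had been transplanted, and blasts were sorted from the marrow of moribund mice and cultured for a short time with serum, Il3, Il6 and SCF. All cells had a C57BL/6 background and the genotype Dot1l f/f, a conditional allele of the mark's own methyltransferase that the labels give as not inactivated. There were 3 libraries made with an antibody to H3K79me2 and 3 input libraries, from chromatin taken without the antibody. Whether different mice gave the numbered libraries is not in the labels. The list pools them, so no value per library, no number of reads and no spread between replicates can be given for any region. The list names no genes. The gene names come with the windows, whose round edges were set with these peaks known, and the cell type in the labels could not be checked against marker genes.

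H3K79me2 is dimethylation of lysine on the globular face of histone H3 and is laid down by DOT1L, whose activity is tied to transcription by RNA polymerase. In expressed genes it is usually densest just after the start and thins out along the gene body, and unusually wide stretches of it are known from leukaemias with rearranged MLL (KMT2A). The 5 genes have unlike functions. Foxp1 encodes a forkhead repressor needed for early B-cell development. Cux1 encodes a homeodomain protein with CUT repeats whose loss occurs in human myeloid neoplasms. Etv6, also called Tel, encodes an ETS-family repressor that keeps haematopoietic stem cells in the bone marrow, and in human myeloid leukaemia it was found fused to MN1. Mgat5 encodes a Golgi enzyme that adds a branch to N-glycans of surface proteins. Auts2 encodes a nuclear protein best known from neuronal development, where it takes part in a variant Polycomb complex.

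The 250 bases before each annotated start are shown for the genes with an entry in the RefSeq promoter table (GRCm38.p6), as the sequence context of the genes named by the windows. The table held 6 starts for 4 of the 5 genes, and Auts2 had no entry. The sequences run 5′ to 3′ on the strand of the gene. Capitals mark matches on either strand to the GC box (GGGCGG), the CCAAT box (CCAAT) and the TATA box (TATAAA), motifs that do not overlap one another here. Their GRCm38.p6 positions do not apply to the mm9 peaks, and the sequences were not placed under them.
Foxp1 start 1, chr6:99520994-99521243, minus strand: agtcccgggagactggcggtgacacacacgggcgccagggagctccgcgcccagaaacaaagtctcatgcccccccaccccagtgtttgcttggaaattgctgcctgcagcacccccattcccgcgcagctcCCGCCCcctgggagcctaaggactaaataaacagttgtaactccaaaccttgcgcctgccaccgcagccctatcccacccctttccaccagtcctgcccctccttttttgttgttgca
Foxp1 start 2, chr6:99266516-99266765, minus strand: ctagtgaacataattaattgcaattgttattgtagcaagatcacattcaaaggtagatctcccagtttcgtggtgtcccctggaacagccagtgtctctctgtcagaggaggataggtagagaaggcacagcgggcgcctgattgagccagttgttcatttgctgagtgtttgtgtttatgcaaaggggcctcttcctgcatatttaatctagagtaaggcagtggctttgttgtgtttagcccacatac
Foxp1 start 3, chr6:99028299-99028548, minus strand: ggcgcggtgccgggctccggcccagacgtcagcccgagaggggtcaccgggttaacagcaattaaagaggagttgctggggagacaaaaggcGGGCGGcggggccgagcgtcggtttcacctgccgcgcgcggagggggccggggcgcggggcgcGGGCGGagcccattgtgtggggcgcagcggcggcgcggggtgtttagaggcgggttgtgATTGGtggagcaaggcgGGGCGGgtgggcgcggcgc
Mgat5, chr1:127204736-127204985, plus strand: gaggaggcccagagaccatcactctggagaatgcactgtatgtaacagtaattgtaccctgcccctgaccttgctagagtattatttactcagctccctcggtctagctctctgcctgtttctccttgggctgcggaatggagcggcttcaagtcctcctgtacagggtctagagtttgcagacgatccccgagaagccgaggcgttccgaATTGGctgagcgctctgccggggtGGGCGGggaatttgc
Cux1, chr5:136565982-136566231, minus strand: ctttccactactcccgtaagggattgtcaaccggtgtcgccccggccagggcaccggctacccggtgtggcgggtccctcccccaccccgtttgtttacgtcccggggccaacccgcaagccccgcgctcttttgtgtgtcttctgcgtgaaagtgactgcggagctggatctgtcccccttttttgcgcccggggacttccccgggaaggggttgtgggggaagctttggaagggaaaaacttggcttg
Etv6, chr6:134035450-134035699, plus strand: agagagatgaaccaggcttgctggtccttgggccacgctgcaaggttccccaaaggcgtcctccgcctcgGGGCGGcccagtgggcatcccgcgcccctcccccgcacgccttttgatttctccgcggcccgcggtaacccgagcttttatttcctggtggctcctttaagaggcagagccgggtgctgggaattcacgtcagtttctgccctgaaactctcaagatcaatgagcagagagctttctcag

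The Foxp1 starts differed in base composition. Start 3, the farthest along the gene, held 34 CpG dinucleotides in 250 bases and 74.0% G and C, more CpG than 96.5% of the 32841 promoter sequences of the same length. Start 2 held 3 CpG and 45.2% G and C, and start 1 held 11 CpG and 60.8%. Etv6 held 16 CpG, Cux1 18 and Mgat5 11, against a median of 6 over all promoters. A GC box was found before Foxp1 starts 1 and 3, Mgat5 and Etv6, and in 32.7% of all promoters. The CCAAT box was found before Foxp1 start 3 and Mgat5, and in 33.9% of all promoters. None of the 6 sequences held the TATA box, which 12.4% of all promoters did. In GRCm38.p6 Foxp1 starts 2 and 3 lie 254.5 and 492.7 kb from start 1. The marked Foxp1 region was 587.2 kb wide in mm9, and whether any of the starts lies under it was not tested.

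H3K79me2 covered 4 of the 5 windows almost from end to end. Peaks covered 97.2% of the Foxp1 window, 96.3% of the Etv6 window, 94.2% of the Cux1 window and 91.9% of the Mgat5 window. They covered 54.3% of the Auts2 window, the longest at 1130 kb. Together 2024 kb of 2610 kb were covered, 77.6%. Auts2 also stood apart in the number of peaks: Mgat5 and Etv6 had 1 peak each, Foxp1 2, Cux1 3 and Auts2 34. In each window the marking began close to the edge on the side of the gene's start, 2.004 kb from it for Etv6, 2.39 kb for Foxp1, 4.34 kb for Mgat5, 4.37 kb for Cux1 and 11.2 kb for Auts2. The far edges were close to marking too, at 6.05 kb for Foxp1 and 7.12 kb for Etv6. Since the edges were set with these peaks known, nothing is read from these distances. High covered shares follow in part from the same choice of edges. Strands were taken from the promoter table, and for Auts2 from general knowledge that it is read towards lower coordinates.

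**Figure D1:**
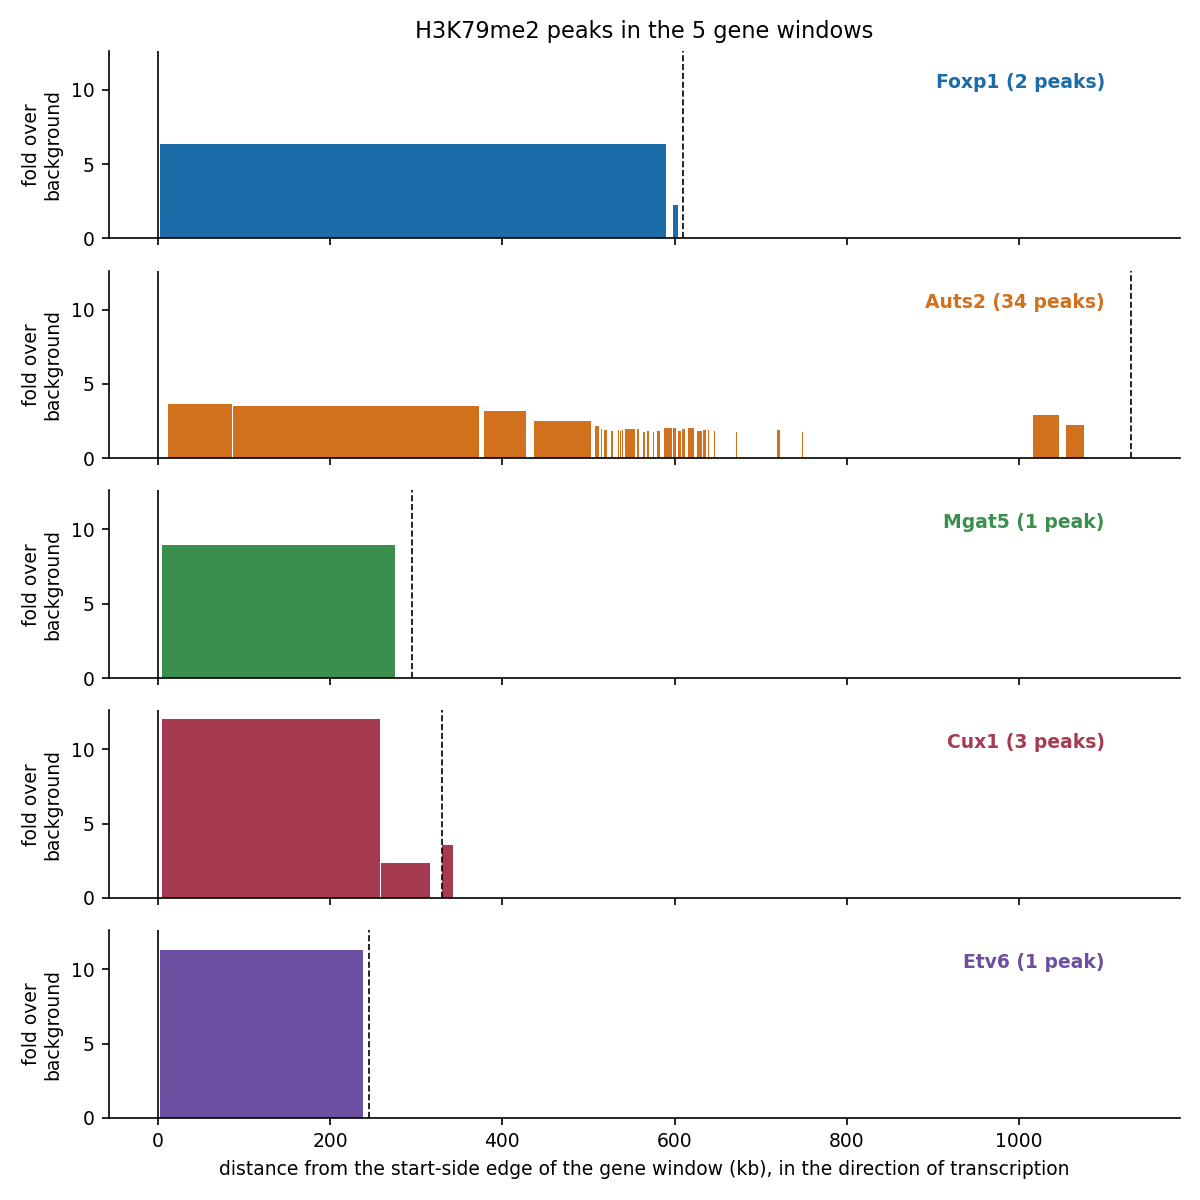
Peaks of the 5 windows, drawn from the edge on the start side (solid line) to the far edge (dashed line) in kb, with the authors' fold over the control background as height. Foxp1, Mgat5, Cux1 and Etv6 were covered for 91.9% to 97.2% of their windows, whose edges were set with the peaks known. The 34 Auts2 peaks were broken up and lower than the widest peaks of the other genes.

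The 5 widest regions were 0.0263% of the peaks and 0.733% of the covered bases, with 1632 kb in all. Width times pileup, a measure of the reads over a region if the pileup is an average over it, came to 1.05% of the sum over the list. Shares above their share of peaks follow from the choice of the widest peaks. By that measure Foxp1 ranked 1st of all peaks, Cux1 2nd, Etv6 3rd and Mgat5 4th, while Auts2 ranked 78th. With the control background taken off, Foxp1, Cux1 and Etv6 kept their ranks, Mgat5 ranked 5th and Auts2 136th. Width is part of the measure, so high ranks also follow in part from the choice. The pileup is the coverage by pooled H3K79me2 reads as the peak caller gave it, and may have been scaled or averaged over a region, so it need not be a read count.

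Of the 41 peaks, 4 had a fold of at least 4, and these were the widest peaks of Foxp1, Mgat5, Cux1 and Etv6. In the whole list 29.3% of peaks reached that fold. A fold of at least 8 was reached by 3 of the 41 peaks, those of Mgat5, Cux1 and Etv6, and by 6.53% of the list. A −log10 q of at least 10 was reached by 7 of the 41 peaks and by 36.4% of the list. Since the windows were chosen through the same contrast, nothing is read from these shares, and 34 of the 41 peaks came from the Auts2 window alone.

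The first gene, Foxp1, lay under the widest H3K79me2 region of the list. The region ran from 98890397 to 99477613 on chromosome 6 and was 587.2 kb wide, 2.06 times the second. Its fold over the control background was 6.33, its pileup 77.7 and its −log10 q 40.6. The fold was above that of 86.1% of all peaks, yet near the middle of the 154 peaks that were at least 100 kb wide, where it ranked 76th. The other Foxp1 peak, 5.48 kb wide with a fold of 2.27, lay 8.87 kb past the far end of the wide one. Before the start side of Foxp1 no peak was called for 113.7 kb, and past its far end for 1109 kb. In GRCm38.p6 its neighbours among protein-coding genes are Gm765 and Eif4e3, and no other protein-coding gene overlaps it.

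Cux1 had the highest fold of the 5 widest regions. The region, 253.1 kb wide, lay on chromosome 5 between 136792526 and 137045631. Its fold was 12.02, its pileup 156.6 and its −log10 q 121.9. Among the peaks of at least 100 kb this fold ranked 4th and among all 18992 peaks 87th, and on chromosome 5 only 6 of 1166 peaks were higher. The far part of the Cux1 window had a lower fold. After a gap of 1.32 kb came a peak of 57.2 kb with a fold of 2.35 and a pileup of 26.99. The fold of the wide peak was 5.11 times that of this one. The Cux1 peak farthest from the start, 13.02 kb wide with a fold of 3.57, lay across the window's far edge with 561 bases inside, so it counts as a member by the overlap alone. Marking around Cux1 was close: the next peak was 50.8 kb away on the start side and 31.8 kb away past that last peak. In GRCm38.p6 the neighbouring protein-coding genes are Sh2b2 and Myl10. Whether the peak across the edge belongs to Cux1 or to a neighbour was not tested.

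Etv6 was nearly as strong as Cux1. Its single peak ran from 133982004 to 134217881 on chromosome 6, over 235.9 kb, with a fold of 11.3, a pileup of 144.4 and a −log10 q of 106.4. The fold ranked 7th among the peaks of at least 100 kb and 151st in the list. The mark reached 7.12 kb from the far edge of the window with no gap called, and that edge was set with the peak known. The nearest peaks outside were small and weak, 1.41 kb with a fold of 2.12 at 44.8 kb before the start side and 0.476 kb with a fold of 1.94 at 97.4 kb past the far side. In GRCm38.p6 the neighbouring protein-coding genes are Gm46977 and Bcl2l14.

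Mgat5, the glycan-branching enzyme, was also marked as 1 unbroken region. It ran from 129099342 to 129370482 on chromosome 1, over 271.1 kb, with a fold of 8.93, a pileup of 108.7 and a −log10 q of 75.2. The fold ranked 25th among the peaks of at least 100 kb. Marking stopped 19.5 kb before the far edge of the window, an edge set with the peak known. The next peak lay 1640 kb away before the start side of Mgat5 and 297.6 kb away past its far side. The latter was 37.7 kb wide with a fold of 11.2, higher than that of Mgat5. Nckap5 and Tmem163 are the neighbouring protein-coding genes in GRCm38.p6, and the outer peaks were not assigned to genes.

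**Figure D2:**
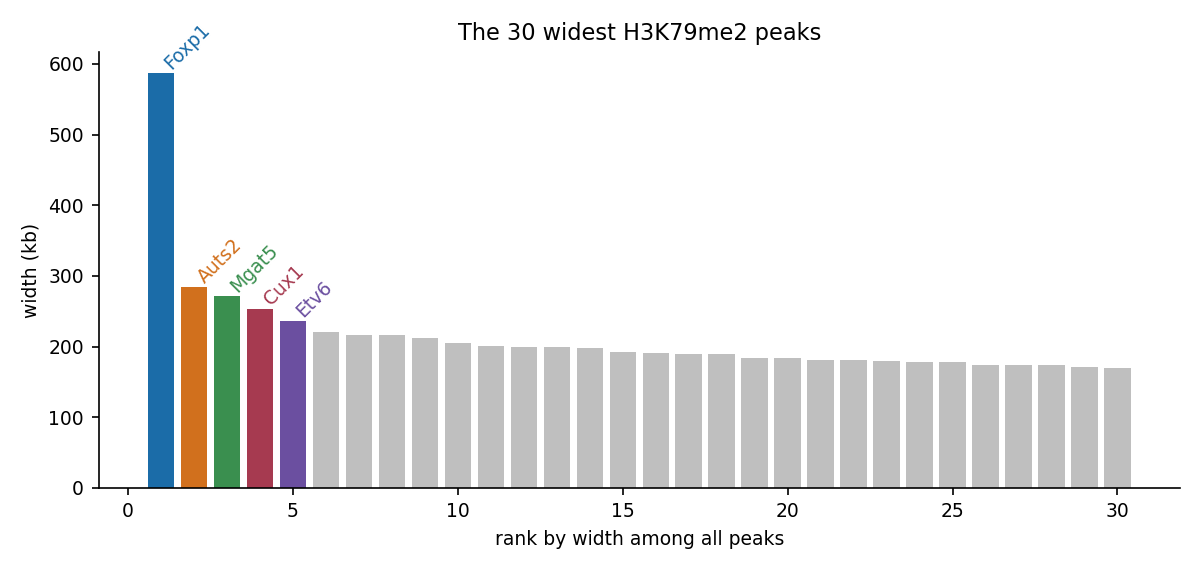
Width in kb of the 30 widest peaks of the list in order, with the 5 over the named genes in colour. Foxp1 at 587.2 kb stood apart, whereas Etv6 at 235.9 kb was close to the sixth peak at 220.7 kb.

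The boundary between the 5 widest and the rest was narrow. Etv6, the last inside it, was 235.9 kb wide. The sixth peak of the list, 220.7 kb wide, lay between 92606774 and 92827478 on chromosome 16 and had a fold of 5.50. The seventh (216.99 kb, fold 3.33) lay between 134611981 and 134828974 on chromosome 2. The eighth, between 75096955 and 75313866 on chromosome 7, spanned 216.9 kb at a fold of 3.74. These next 3 peaks all had folds below those of Foxp1, Mgat5, Cux1 and Etv6, and the seventh lay below Auts2 too.

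The 5 regions differed in signal and hardly in background. The pileup of Cux1, 156.6, was 3.71 times that of Auts2, 42.2, and its fold of 12.02 was 3.44 times that of Auts2, 3.49. The control background under them, computed from pileup and fold, ran only from 11.3 to 12.1, a ratio of 1.07. Over the list its median was 11.2 and its lowest value 10.5. The order by fold was Cux1, Etv6, Mgat5, Foxp1 and Auts2, and pileup and −log10 q gave the same order. Fold is pileup over a nearly equal background, and −log10 q comes from the same calls, so the shared order is no separate support. When the folds of all peaks in a window were averaged by width, Etv6 at 11.3 came before Cux1 at 9.97, because the low far part of Cux1 then counts, and without the peak across the window edge Cux1 averaged 10.2. The averages were 8.93 for Mgat5, 6.30 for Foxp1 and 3.09 for Auts2.

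**Figure D3:**
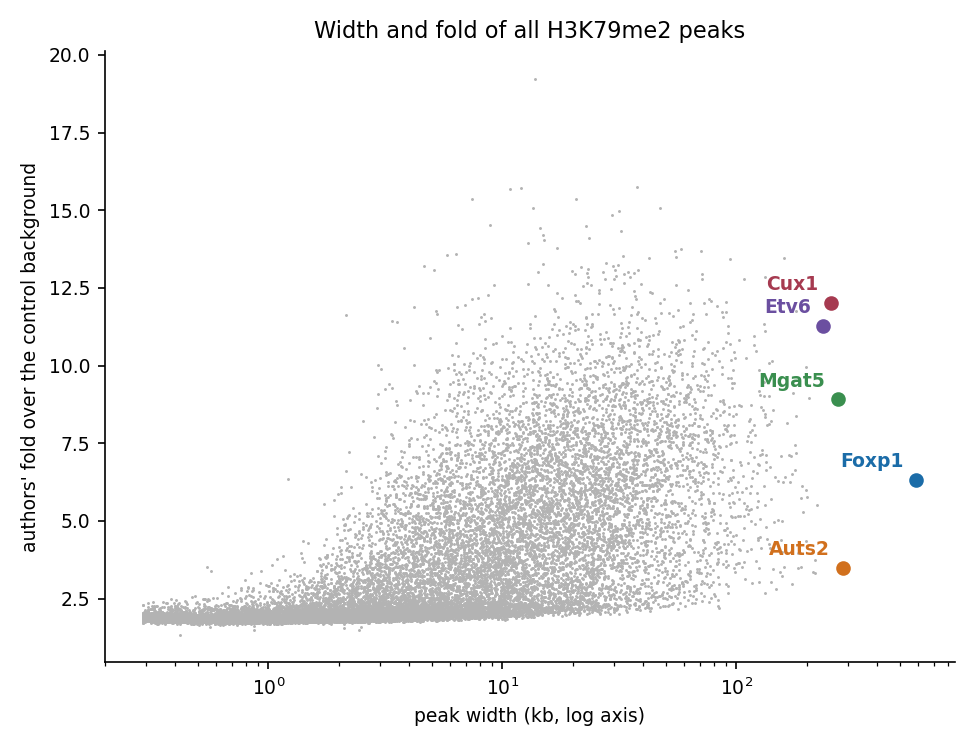
Fold over the control background against width in kb (log axis) for all 18992 peaks, in grey, with the widest peak of each window in colour. The 5 regions lie at the right edge by choice and spread in fold from 3.49 for Auts2 to 12.02 for Cux1.

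Against the peaks of at least 100 kb, Auts2 was low and Cux1 and Etv6 were high. The 154 peaks of at least 100 kb had a median fold of 6.27, with quartiles of 4.54 and 8.11 and a range of 2.67 to 13.5. Auts2 ranked 140th among them, and it was 1 of 24 with a fold under 4. Foxp1 lay close to the median, and Mgat5, Etv6 and Cux1 lay above the upper quartile. Among still wider peaks Auts2 stood out less. The 11 peaks of at least 200 kb had a median fold of 5.78, and 4 of them, Auts2 included, were under 4. The peaks ranked 7, 8 and 9 by width had folds of 3.33, 3.74 and 3.37, close to the 3.49 of Auts2. Other long peaks of like fold were found for each gene, named here by mm9 position. For Cux1 they were 78304048 to 78484437 on chromosome 12, 110597953 to 110728734 on chromosome 10 and 94788606 to 94896914 on chromosome 16. The nearest to Etv6 were the same peak of chromosome 10, 21636728 to 21770000 on chromosome 19 and 21971503 to 22090205 on chromosome 3. Those nearest to Mgat5 were 87474401 to 87679907 on chromosome 4, 37913410 to 38044242 on chromosome 13 and 32231927 to 32369636 on chromosome 9. For Foxp1 they were 109143455 to 109260407 on chromosome 3, 17979377 to 18129883 on chromosome 2 and 119009469 to 119171679 on chromosome 5. The peaks nearest to Auts2 were all on chromosome 18, 36233363 to 36357939, 13954900 to 14138520 and 84602143 to 84761471. These 14 peaks were 108.3 to 205.5 kb wide and differed from their gene by at most 0.089 in log2 fold.

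Auts2 was marked weakly among the peaks of at least 100 kb, and in steps along its length. The fold of its widest peak was still above that of 66.2% of all peaks, whose median fold was 2.28. The peak nearest the start side, between 132943490 and 133018754 on chromosome 5, had a width of 75.3 kb, a fold of 3.66 and a pileup of 44.2. The next, from 132657475 to 132942202, was the second widest of the list at 284.7 kb, with a fold of 3.49, a pileup of 42.2 and a −log10 q of 12.3. It was followed by a peak of 49.1 kb with a fold of 3.18 and a peak of 67.04 kb with a fold of 2.49. The fold was thus lower in each successive peak away from the start side over these 4. They spanned 492.0 kb with gaps of 1.29, 6.44 and 8.22 kb between them, and held 77.6% of the covered bases of the window.

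Past these 4 peaks the Auts2 marking broke into 28 small peaks. They lay between 508.1 and 749.5 kb from the start-side edge, were 0.462 to 11.6 kb wide with a median of 2.35 kb, and covered 85.6 kb in all. Their folds ran from 1.74 to 2.19 with a median of 1.87, and 24 of the 28 were under 2. Folds this low were common in the whole list, where the lower quartile was 1.91 and the median 2.28. Their pileups of 19.02 to 25.4 were at or just above the lowest pileup in the list, 19.0, so stretches between them may carry the mark below what was called. No peak was called over the following 266.6 kb. The last 2 Auts2 peaks, near the far edge, were higher again, 30.4 kb wide with a fold of 2.88 and 21.6 kb wide with a fold of 2.22.

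**Figure D4:**
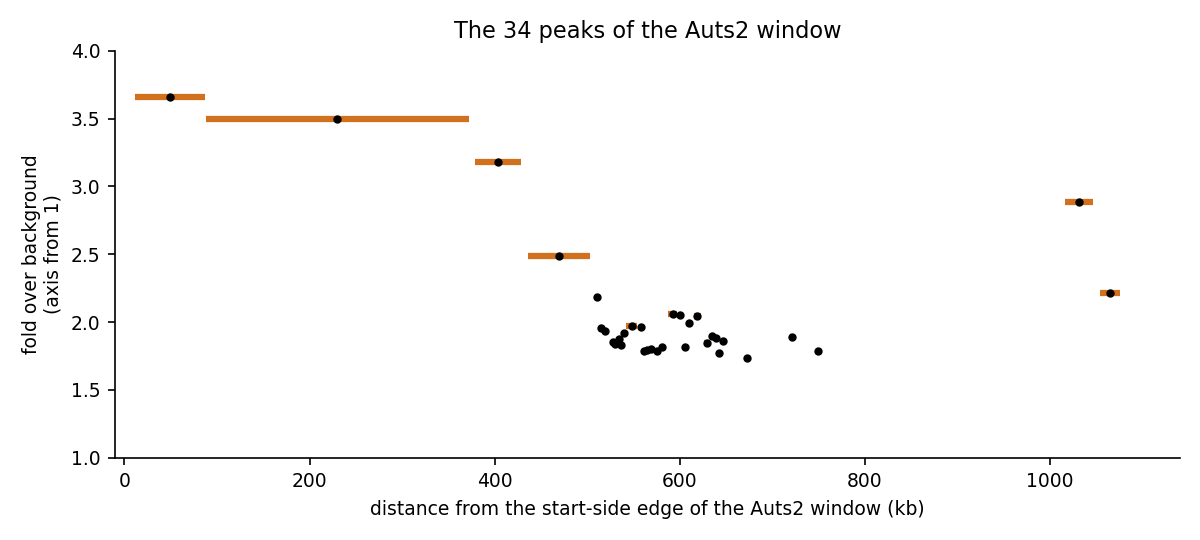
Fold over the control background of each Auts2 peak (points at the middle, bars over the width) by distance in kb from the start-side edge of the window. The fold stepped down from 3.66 to 2.49 over the first 4 peaks, stayed between 1.74 and 2.19 over the next 28 and was 2.88 and 2.22 in the last 2.

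In steps of 200 kb from the start-side edge, the Auts2 window was covered for 93.7%, 96.8%, 73.8%, 16.6% and 0%, and for 40.0% of the remaining 130 kb. The average fold over the covered bases was 3.56, 3.46, 2.43 and 1.92 in the first 4 steps and 2.61 in the last. In Foxp1 the first 3 steps were covered for 98.8%, 100% and 95.6%, so few gaps opened over a like length. The list gives 1 value for a whole peak, so a decline inside the Foxp1 peak, or inside those of Mgat5, Cux1 and Etv6, would not show. Across the 34 Auts2 peaks, Spearman's rho between distance and fold was −0.34, and −0.53 without the last 2. These peaks share the same libraries and the same calling cutoff, and wider peaks had higher folds among them (rho 0.79), so the values are a description.

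The megabase from 132 Mb on chromosome 5 held 32 peaks, all of them Auts2 peaks described above, so the count restates those peaks. The median was 8 over the 1855 bins of 1 Mb with any peak, and 26 bins held more than 32. Counted from the outermost Auts2 peaks, the next peak lay 1623 kb away on the start side and 1154 kb away on the far side. Galnt17 and Castor2 are the neighbouring protein-coding genes in GRCm38.p6.

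Which regions are the widest turned on where the peak caller split them. With peaks joined across gaps of at most 3 kb, Foxp1 stayed first at 587.2 kb and Auts2 second at 361.3 kb, Cux1 grew to 311.6 kb and came 5th, and Mgat5 and Etv6 became 7th and 11th. Ranks 3 and 4 then went to a region of 7 peaks from 134611981 to 134947504 on chromosome 2, 335.5 kb wide, and a region of 2 peaks from 4990153 to 5305095 on chromosome 17, 314.9 kb wide. Joined across gaps of at most 10 kb, 29 Auts2 peaks made a region of 635.6 kb, wider than Foxp1 at 601.6 kb. No other region joined so many peaks at that gap, and 87.6% of its length was marked. The fold kept the contrast between these regions: the joined Auts2 region averaged 3.14 and Foxp1 6.30.

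**Figure D5:**
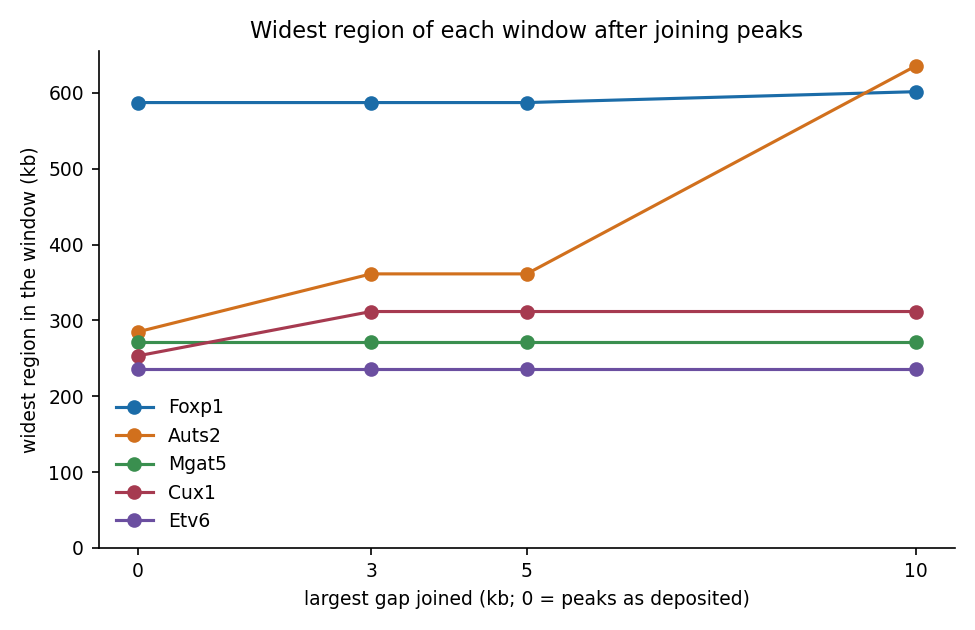
Width in kb of the widest region in each window for the peaks as deposited (0) and after joining peaks across gaps of up to 3, 5 and 10 kb. Mgat5 and Etv6 did not change, and Auts2 grew from 284.7 to 635.6 kb and passed Foxp1.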

How the data were processed

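Reads of 3 H3K79me2 and 3 input libraries were processed by the authors. The submitters' processing notes name mm9 as the build and MACS2, GSNAP, CASAVA 1.8.2, bedtools 2.25.0 and SAMtools as tools, and settings are not given in the sources used here. Per the file headers, the deposited table holds a position, length, pileup (a coverage signal), fold enrichment (a ratio of pileup to control background), −log10 p and −log10 q for each peak. The −log10 p-value was not used. Folds and pileups are the authors' own values, can be averages over a region, and served to describe and rank peaks within this list. Depth per library is not given there, so no interval was made.

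Windows were taken in mm9. The control background was recovered from pileup and fold on the assumption that MACS2 had added 1 to both terms of the ratio. Coverage, ranks and joined regions were computed with Python 3.11.15, numpy 2.4.6 and pandas 2.3.3. Coverage, the number of joined regions and the recovery of the background were tested on simulated data. The simulated folds were built with the same added 1, so that assumption was not tested. Plots used matplotlib 3.10.9. RefSeq tables of GRCm38.p6 gave gene names, neighbours, strands and promoter sequences. The genes, windows and lists were chosen with earlier results of these data known. The text names the 5 genes, the next 3 peaks by width and, for each gene, the 3 peaks of at least 100 kb nearest in log2 fold. Other regions were chosen after their values were seen.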

Additional observations from a re-analysis of the deposited data

How the results depend on the processing

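No paired analysis was possible because all libraries were combined into 1 list, so no library could be left out either. The 41 peaks in the windows became 9 at a −log10 q of at least 5, 7 at 10, 4 at a fold of at least 4, and 23 or 10 when joined across at most 3 or 10 kb. The covered share of 77.6% became 68.5%, 65.4%, 51.6%, 78.7% and 81.3% in the same order, and 65.8% with windows widened by 50 kb, which add unmarked flanks. This covered share rests on window edges set with the peaks known. The share of width times pileup in the widest region of each window, 1.05%, became 1.12%, 1.17%, 1.17%, 1.08% and 1.12%, and was 1.12% above the control background. At both −log10 q cutoffs the 5 widest peaks all stayed while the list lost other peaks, so this share could only rise. At a fold of at least 4 no Auts2 peak was left, so that value covers 4 genes. Counting only peaks wholly inside a window left 40, and widening gave 44. Of the 5 places in the order by fold, 3 were kept when folds were averaged over each window, with Cux1 and Etv6 exchanged. Joining across 10 kb and the area above background were chosen after seeing the data. The lowest pileup listed is 19.0, and what lies under it is not shown by the list.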
